A study of Mus musculus with 10 samples.

Results

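Ly6C+ monocytes are the blood monocytes that carry the surface protein Ly6C, and here they were followed gene by gene and cell by cell in mice that had received clodronate liposomes. Each sorted population carried a hashtag, an antibody with a DNA barcode that marks the population a cell came from. A cell counted as a Ly6C+ monocyte when exactly 1 hashtag was called in it, that hashtag was the one the labels give to Ly6C+ monocytes, and it held at least 1000 gene UMIs (unique molecular identifiers, each standing for 1 captured transcript), at least 500 genes and at most 10% mitochondrial UMIs. This gave 931 cells in dataset 1 and 866 in dataset 2, together 1797 of the 14687 cells of the series that had 1 hashtag and passed the same filters. No single gene's level was used to choose the cells beyond these limits.

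The blood populations set beside them were CD43+ monocytes, with 663 and 952 cells, and DN blood cells, with 1678 and 4971 cells, which lack both Ly6C and CD43 and, like the monocytes, were sorted for high CD115. All blood donors were female C57BL/6Rj mice injected intravenously with clodronate liposomes 9 days before, a treatment that depletes phagocytes and that the labels say was given to raise the number of DN cells. No blood from untreated mice was analysed here, so every blood group carries the treatment. The blood of 20 mice was pooled for dataset 1 and that of 18 for dataset 2. The other cells of the series, LysoDCs and conventional dendritic cells, came from the Peyer's patches of untreated mice of the same strain and sex, 30 and 20 per dataset. Dataset 1 was a single library, whereas the labels place the Ly6C+ monocytes, the CD43+ monocytes and the DN blood cells of dataset 2 in separate libraries. Differences between the blood populations of dataset 2 therefore cannot be told apart from differences between libraries, and each population had n = 2 pools.

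Ly6C+ monocytes, also called classical monocytes, leave the bone marrow with the help of the chemokine receptor CCR2, circulate briefly, and enter inflamed or renewing tissue, where they give rise to macrophages and to cells with dendritic features. Some convert in the blood into CD43+ (non-classical) monocytes, which patrol the vessel wall. Classical monocytes are known for secreted and granule proteins, for adhesion molecules, and for a ready response to type I interferon.

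The hashtag label fitted the transcripts of the marker genes. Ly6c2, which encodes the sorted protein Ly6C2 and thus checks the sort, stood at 1288 and 1059 CPM (UMIs of the gene scaled to an equal total for every sum) in Ly6C+ monocytes of datasets 1 and 2, against 10.8 and 2.31 CPM in CD43+ monocytes and 116 and 11 CPM in DN blood cells. Fn1 (chr1:71585520-71653200, minus strand, GRCm38), the gene of fibronectin, stood at 922 and 898 CPM in Ly6C+ monocytes, at 5.81 and 5.01 CPM in CD43+ monocytes and at 136 and 47.2 CPM in DN blood cells. Chil3 (chr3:106147554-106167564, minus strand), a secreted chitinase-like protein, stood at 1293 and 999 CPM in Ly6C+ monocytes, at 79.3 and 51.2 CPM in CD43+ monocytes and at 56.2 and 1.29 CPM in DN blood cells. Ly6c2 has a near-identical neighbour, Ly6c1, so the split of reads between them is uncertain. All 3 markers were highest in Ly6C+ monocytes in both datasets. The DN blood cells of dataset 1 held more of each marker than those of dataset 2.

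Most single cells carried these markers too. With every cell thinned to 2000 UMIs (which left out 30 and 5 Ly6C+ monocytes below that depth), Ly6c2 was seen in 71.3% and 63.3% of Ly6C+ monocytes, against 1.74% and 0.154% of CD43+ monocytes and 14.4% and 1.45% of DN blood cells. Unthinned, the shares were 86.5% and 82.3% of Ly6C+ monocytes, 3.17% and 0.630% of CD43+ monocytes and 23% and 3.52% of DN blood cells. The median depths before thinning were 4409 and 5920 UMIs in Ly6C+ monocytes, 2963 and 2312 in CD43+ monocytes and 4484 and 5224 in DN blood cells. Of the thinned Ly6C+ monocytes, 31 of 901 in dataset 1 (3.44%, exact 95% interval 2.35% to 4.85%) and 51 of 861 in dataset 2 (5.92%, 4.44% to 7.72%) had no UMI of Ly6c2, Chil3 or Fn1. All 3 markers were seen together in 275 of 901 and 207 of 861 Ly6C+ monocytes, against 0 of 574 and 0 of 650 CD43+ monocytes and 4 of 1653 and 0 of 4839 DN blood cells. Exactly 1 marker was seen in 246 of 901 and 254 of 861 Ly6C+ monocytes. The same held for 86 of 574 and 61 of 650 CD43+ monocytes and for 433 of 1653 and 363 of 4839 DN blood cells. Detection of all 3 markers thus set Ly6C+ monocytes apart in both datasets. The share with exactly 1 marker was alike in the DN blood cells of dataset 1, at 26.2% against 27.3% of Ly6C+ monocytes. That class leaves out cells with 2 or 3 markers. No marker was seen in 1129 of 1653 of those DN blood cells, against 31 of 901 Ly6C+ monocytes. Ly6c2 encodes the sorted protein, so its part in these differences checks the gate. A cell without any of the markers was the exception among Ly6C+ monocytes.

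The summed libraries held 4120083 and 5197974 UMIs of Ly6C+ monocytes, 2409391 and 2596548 of CD43+ monocytes and 7673644 and 28778760 of DN blood cells. In such sums, fewer cells expressing a gene and less RNA per expressing cell cannot be told apart. No barcode was shared between the Ly6C+ monocytes of the datasets (0 shared), although 37 barcodes occurred in both barcode lists. Markers of other blood cells had sums in Ly6C+ monocytes of 1.70 and 1.15 CPM for T cells, 34.5 and 21.0 CPM for B cells, 21.6 and 12.5 CPM for natural killer cells, and 0 CPM for basophils and mast cells. The neutrophil markers summed to 166 and 150 CPM, almost all of it from Csf3r and Mmp8, while Ly6g, which defines neutrophils, stood at 0 and 0.192 CPM. Markers of plasmacytoid dendritic cells summed to 371 and 272 CPM in Ly6C+ monocytes, 223 and 151 CPM in CD43+ monocytes and 305.6 and 187 CPM in DN blood cells. Of the Ly6C+ sums 353 and 257 CPM were Bst2, which is also on the interferon list, while Siglech, which defines those cells, stood at 0 CPM in both Ly6C+ pools. Erythroid markers summed to 4.37 and 0.770 CPM in Ly6C+ monocytes, 27.4 and 407 CPM in CD43+ monocytes and 390 and 1.18 CPM in DN blood cells. Genes that mark Peyer's patch LysoDCs summed to 2586 and 980 CPM in Ly6C+ monocytes, 2660 and 942 CPM in CD43+ monocytes and 2496 and 886 CPM in DN blood cells, so their level followed the dataset and not the blood population. The part of erythroid and LysoDC transcripts in the results below was not tested. C1qa, which LysoDCs held at 8726 CPM in dataset 1, was seen in 59.9% and 4.99% of thinned Ly6C+ monocytes and in 66.0% and 15.2% of thinned CD43+ monocytes.

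Ly6C+ monocytes were then set against both other blood populations at once. Expression differed for 2077 of 11458 genes tested (18.1%), of which 1191 (10.4%) were higher in Ly6C+ monocytes and 886 (7.73%) lower, at an adjusted p under 0.05 (edgeR quasi-likelihood test on the sums, Benjamini-Hochberg over all genes). The reference of this contrast is the mean of the log levels of CD43+ monocytes and DN blood cells. Of the genes called higher, 976 of 1191 stood above both other populations in both datasets, and of those called lower, 713 of 886 stood below both. Without Ly6C+ replicate 2 (the dataset 2 pool) the count of called genes was 535, without Ly6C+ replicate 1 it was 1293, without CD43+ replicate 2 it was 1287, and without the dataset term it was 1147.

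The 12 largest increases were ranked among called genes with at least 50 CPM in both Ly6C+ pools, leaving out genes of proteins stained for the sort. Secreted proteins, surface proteins and interferon-inducible genes were among them. Mmp8 (chr9:7558456-7568485, plus strand), a collagenase known from neutrophil granules, had 75.7 and 61.6 CPM in Ly6C+ monocytes, against 1.25 and 0.385 CPM in CD43+ monocytes and 4.30 and 0.174 CPM in DN blood cells, a log2 change of 6.23 ± 0.87 (SE, adjusted p = 0.0193). Cd177 (chr7:24743983-24760311, minus strand), a surface glycoprotein also known from neutrophils, had 154 and 95.2 CPM in Ly6C+ monocytes, 0.830 and 1.93 CPM in CD43+ monocytes and 11.7 and 1.46 CPM in DN blood cells (log2 change 5.75 ± 0.66, adjusted p = 0.0109). In neither of these did any other pool reach the lower Ly6C+ pool. Slpi, a secreted inhibitor of neutrophil proteases, had 164 and 160 CPM in Ly6C+ monocytes, 17.4 and 35.1 CPM in CD43+ monocytes and 6.91 and 0.521 CPM in DN blood cells (4.41 ± 0.82, adjusted p = 0.0433). Leaving out 1 CD43+ pool ended the calls of Mmp8 and Cd177, with adjusted p = 0.114 and 0.0711 without CD43+ replicate 1 and 0.117 and 0.0646 without CD43+ replicate 2 (edgeR). Slpi did not pass without either Ly6C+ pool or either CD43+ pool, at adjusted p values of 0.126 to 0.431, and with the blood populations alone or no filter on low counts Mmp8 and Slpi did not pass either (0.0571 to 0.115).

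Fn1 rose by a log2 change of 5.61 ± 0.54 (adjusted p = 0.00701). F13a1, the catalytic subunit of coagulation factor XIII, which cross-links fibrin, had 879 and 580 CPM in Ly6C+ monocytes, 11.6 and 2.31 CPM in CD43+ monocytes and 279 and 82.4 CPM in DN blood cells (4.72 ± 0.55, adjusted p = 0.0123). Against DN blood cells alone F13a1 did not pass, with a log2 change of 2.28 ± 0.59 and an adjusted p of 0.0893. Other genes of the leading 12 were Ms4a8a, a membrane protein of the MS4A family, the interferon-inducible Ifi205, Slfn1 and Ifi211, the actin-capping protein Capg and the lipid-releasing enzyme Lpl, with log2 changes between 2.93 and 3.96. Capg had the smallest SE of the 12, at 646 and 539 CPM in Ly6C+ monocytes, against 42.3 and 16.6 CPM in CD43+ monocytes and 205 and 95.6 CPM in DN blood cells (3.36 ± 0.20, adjusted p = 3.5e-05). Without CD43+ replicate 1 or replicate 2, Fn1 (adjusted p = 0.0623 and 0.0638), F13a1, Ms4a8a, Ifi205, Slfn1 and Lpl did not pass. F13a1 also lost its call without Ly6C+ replicate 2 or either DN pool (0.0519 to 0.0678), and Ifi205, Slfn1 and Lpl lost theirs without either Ly6C+ pool (0.0693 to 0.288). Ifi205 also missed the threshold without the dataset term (0.0535) and in 4 other alternatives, up to 0.117, and Lpl with the blood populations alone or no filter on low counts (0.0647 and 0.0656).

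Ly6c2 itself passed (6.63 ± 0.87, adjusted p = 0.0194), as did Ccr2, at 1338 and 1241 CPM in Ly6C+ monocytes, 86.3 and 48.1 CPM in CD43+ monocytes and 890 and 683 CPM in DN blood cells (2.60 ± 0.18, adjusted p = 2.91e-05). Both proteins were stained for the sort, so these are checks of the gate. Chil3 did not pass, with a log2 change of 5.41 ± 1.26 and an adjusted p of 0.0832, although both Ly6C+ pools lay above every other pool. Its level in DN blood cells differed between the datasets more than that of Fn1. Without DN replicate 1 or replicate 2 Chil3 passed, with log2 changes of 6.91 and 4.51, as it did with DESeq2 (5.71, adjusted p = 0.000976). Ly6c2 did not pass without CD43+ replicate 1 or replicate 2 (0.109 and 0.118) or with the blood populations alone (0.0571).

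**Figure D1:**
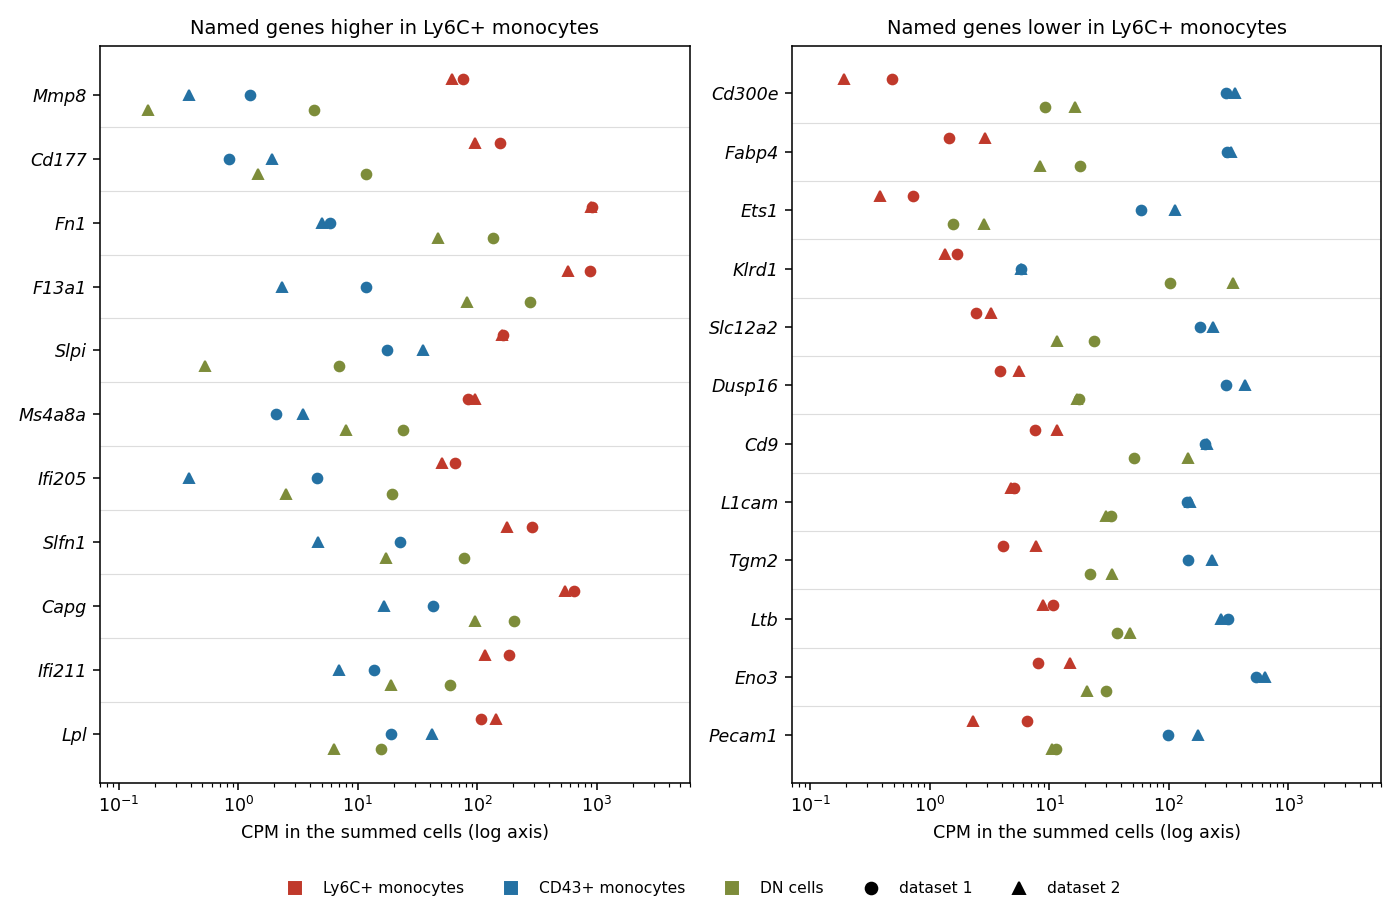
CPM of 11 of the named genes higher and the 12 lower in Ly6C+ monocytes, on a log axis, with 1 point per pool: Ly6C+ monocytes are the upper points of each gene, then CD43+ monocytes, then DN blood cells, circles for dataset 1 and triangles for dataset 2. Cd300e stands at 0.485 and 0.192 CPM in Ly6C+ monocytes and Mmp8 at 75.7 and 61.6 CPM.

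The 12 largest decreases, among called genes with at least 50 CPM in CD43+ monocytes or DN blood cells, were mostly genes of CD43+ monocytes. Cd300e (chr11:115051917-115062177, minus strand), an activating myeloid receptor, had 0.485 and 0.192 CPM in Ly6C+ monocytes, which is 2 and 1 UMIs, against 300.9 and 361 CPM in CD43+ monocytes and 9.12 and 16.3 CPM in DN blood cells (adjusted p = 2.91e-05). Over the pooled UMIs the Ly6C+ level was 0.000969 of the CD43+ level (exact 95% interval 0.000200 to 0.00284, counting error only). Fabp4 (chr3:10204088-10208576, minus strand), a fatty acid-binding protein, had 1.46 and 2.89 CPM in Ly6C+ monocytes, 310 and 331 CPM in CD43+ monocytes and 18.1 and 8.41 CPM in DN blood cells (log2 change -4.69 ± 0.44, adjusted p = 0.00155). Both genes were close to absent from Ly6C+ monocytes in both datasets. Dusp16, a phosphatase of the JNK kinases, had 3.88 and 5.58 CPM in Ly6C+ monocytes, 299 and 435 CPM in CD43+ monocytes and 17.7 and 17.0 CPM in DN blood cells (-3.95 ± 0.21, adjusted p = 1.08e-05).

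Ltb, Eno3, Slc12a2, Tgm2, L1cam, Cd9, Pecam1 and Ets1 fell as well. Ltb encodes lymphotoxin beta, Eno3 a glycolytic enolase, Slc12a2 a sodium, potassium and chloride cotransporter, Tgm2 a transglutaminase, L1cam and Pecam1 adhesion molecules, Cd9 a tetraspanin and Ets1 a transcription factor. In all 8 of these the CD43+ pools were the highest of the dataset. Cd9 came nearest to an equal level in DN blood cells, at 7.52 and 11.5 CPM in Ly6C+ monocytes, 203 and 210 CPM in CD43+ monocytes and 51.2 and 145 CPM in DN blood cells. Klrd1, a chain of natural killer cell receptors, was the exception among the 12, with 1.70 and 1.35 CPM in Ly6C+ monocytes, 5.81 and 5.78 CPM in CD43+ monocytes and 102 and 344 CPM in DN blood cells (-4.45 ± 0.75, adjusted p = 0.0195). With Ly6C+ replicate 2 left out, Klrd1, Cd9, Pecam1, Slc12a2, Ets1 and L1cam did not pass (adjusted p = 0.0585 to 0.281), and without Ly6C+ replicate 1 the first 4 of these did not (0.0509 to 0.13). Klrd1 also missed the threshold without either CD43+ pool (0.0664 and 0.0727) and with the stricter hashtag quantile (0.059), Cd9 without CD43+ replicate 1 (0.0533) and Pecam1 without either DN pool (0.117 and 0.118).

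Set against each population alone, Ly6C+ monocytes differed from CD43+ monocytes in 3202 genes (27.9%), with 1656 (14.5%) higher and 1546 (13.5%) lower. They differed from DN blood cells in 1692 genes (14.8%), with 847 (7.39%) higher and 845 (7.37%) lower. These contrasts share the Ly6C+ pools. Without Ly6C+ replicate 2 the counts were 1538 against CD43+ monocytes and 310 against DN blood cells. Without CD43+ replicate 2, 1322 genes differed from CD43+ monocytes, and without DN replicate 2, 688 genes differed from DN blood cells.

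Of 23 genes known from classical monocytes, 17 were higher against both populations together and 0 lower, where all genes gave 10.4% and 7.73%. Their median log2 change was 2.03, where the median over all genes was -0.012. The list holds Ly6c2 and Ccr2, which are checks of the gate. Besides the genes above, Vcan, the matrix proteoglycan versican, had 77.9 and 47.7 CPM in Ly6C+ monocytes, 1.25 and 0.770 CPM in CD43+ monocytes and 2.48 and 0.0695 CPM in DN blood cells (6.29 ± 0.66, adjusted p = 0.00572). The calcium-binding S100a4 and S100a6 rose by less, with log2 changes of 1.27 ± 0.14 and 1.43 ± 0.13. Plac8 rose by 1.5 ± 0.28, with levels of 1165 and 3103 CPM in Ly6C+ monocytes, 643 and 1236 CPM in CD43+ monocytes and 542 and 692 CPM in DN blood cells. The 6 that did not pass were Chil3, Mgst1, Hp, Gda, F10 and Gpx1. Hp, the gene of haptoglobin, had 943 and 705 CPM in Ly6C+ monocytes, 291 and 590 CPM in CD43+ monocytes and 103 and 5.59 CPM in DN blood cells (adjusted p = 0.232). Without Ly6C+ replicate 2, 11 of the 23 were higher, and without CD43+ replicate 1 or replicate 2 it was 11 or 12.

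Genes of coagulation and extracellular matrix were higher in 10 of 16 tested, with 0 lower, where all genes gave 10.4% higher and 7.73% lower. Thbs1, the gene of thrombospondin, had 10.9 and 9.23 CPM in Ly6C+ monocytes, 0 and 0.385 CPM in CD43+ monocytes and 0.130 and 0 CPM in DN blood cells (adjusted p = 0.00013). F5, coagulation factor V, had 22.8 and 16.5 CPM in Ly6C+ monocytes, 1.25 and 1.16 CPM in CD43+ monocytes and 1.69 and 0.278 CPM in DN blood cells (4.51 ± 0.38, adjusted p = 5.97e-05). Factors of the clotting cascade were not all alike. F10, coagulation factor X, was not called against CD43+ monocytes, at 98.1 and 86.4 CPM in Ly6C+ monocytes, 113 and 130 CPM in CD43+ monocytes and 17.2 and 3.65 CPM in DN blood cells (against CD43+ monocytes -0.22 ± 0.60, adjusted p = 0.825). F3, tissue factor, was at 0 CPM in both Ly6C+ pools. Without Ly6C+ replicate 2 or CD43+ replicate 2, 5 of the 16 were higher, and without CD43+ replicate 1 it was 6.

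Genes of granulocytic monocytes were only partly present. Of 17 such genes, 10 were expressed enough to be tested, and 6 were higher and 0 lower. All genes tested gave 10.4% higher and 7.73% lower. Prdx5, a peroxiredoxin, had 1905 and 1647 CPM in Ly6C+ monocytes, 1091 and 929 CPM in CD43+ monocytes and 654 and 260 CPM in DN blood cells (1.54 ± 0.21, adjusted p = 0.00192). The calprotectin genes were almost silent, with S100a8 at 5.83 and 2.89 CPM and S100a9 at 0.485 and 0.192 CPM in Ly6C+ monocytes. The neutrophil granule genes Ngp and Camp, together with Retnlg, Lrg1 and Wfdc21, were at 0 CPM in both Ly6C+ pools. Of 12 genes of progenitors and primary granules 8 were tested, and 5 of them were higher, against the same 10.4% of all genes. Prtn3, proteinase 3, had 14.3 and 17.7 CPM in Ly6C+ monocytes, 0 CPM in both CD43+ pools and 4.17 and 0.903 CPM in DN blood cells (adjusted p = 0.0136, or 0.0742 with the blood populations alone). Ctsg, cathepsin G, had 2.18 and 2.69 CPM, and Fcnb, ficolin B, 1.70 and 1.92 CPM in Ly6C+ monocytes (9 and 14 UMIs, and 7 and 10 UMIs). Both Elane and Ms4a3 were at 0 CPM. Srgn, the proteoglycan core of granules, was lower, at 340 and 479 CPM in Ly6C+ monocytes, 793 and 1068 CPM in CD43+ monocytes and 365 and 533 CPM in DN blood cells (-0.56 ± 0.17, adjusted p = 0.0447). Without Ly6C+ replicate 2 or CD43+ replicate 1, 3 or 2 granulocytic genes were higher. Of the progenitor genes, 3 were higher without Ly6C+ replicate 1 and 1 without Ly6C+ replicate 2, while 0 of them were lower without any 1 pool other than DN replicate 1, and 0 without the dataset term.

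Receptors for homing and adhesion went both ways, with 5 higher and 5 lower of 23 tested, where all genes gave 10.4% and 7.73%. Beside Cd177 and Ccr2, the chemokine receptor Ccr1 and the integrin ligand Icam1 were higher, with log2 changes of 1.03 ± 0.28 and 0.68 ± 0.14. The integrin chains Itgb1 and Itgb2, the chemokine receptor Cxcr4, the sphingosine phosphate receptor S1pr4 and Pecam1 were lower. Itgb1 had 201 and 174 CPM in Ly6C+ monocytes, 660 and 604 CPM in CD43+ monocytes and 256 and 197 CPM in DN blood cells (-0.92 ± 0.13, adjusted p = 0.000942). Cx3cr1, the fractalkine receptor that serves as a marker of non-classical monocytes, had 559 and 488 CPM in Ly6C+ monocytes, 828 and 1089 CPM in CD43+ monocytes and 474 and 245 CPM in DN blood cells, and did not pass (adjusted p = 0.892). With Ly6C+ replicate 1 left out 2 genes were lower, without Ly6C+ replicate 2, 3 were higher and 2 lower, and 3 were lower without CD43+ replicate 2 or without the dataset term.

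Of 23 genes of pattern recognition, 4 were higher and 0 lower, where all genes gave 10.4% and 7.73%. They were Ly96, the partner of the endotoxin receptor TLR4, with a log2 change of 1.38 ± 0.24, Tlr2, which recognises bacterial lipopeptides, with 0.997 ± 0.23, the inflammasome sensor Nlrp3 with 1.19 ± 0.17, and Naip2 with 0.50 ± 0.15. Of 20 inflammatory mediators, 3 were higher and 1 lower, near the same background. Ccl2, the ligand of CCR2, had 7.28 and 8.85 CPM in Ly6C+ monocytes, 0 CPM in both CD43+ pools and 0.912 and 0.660 CPM in DN blood cells (adjusted p = 0.000608). Il18 rose by 1.25 ± 0.15 and Il15 by 1.33 ± 0.30, while Nfkbiz, a regulator of NF-kappaB, fell by 1.11 on the log2 scale (SE 0.15). Il1b had 61.9 and 49.3 CPM in Ly6C+ monocytes, 136 and 271 CPM in CD43+ monocytes and 80.4 and 106 CPM in DN blood cells, and did not pass (adjusted p = 0.144). The pattern recognition genes called higher numbered 2 without Ly6C+ replicate 1, 1 without Ly6C+ replicate 2, 2 without CD43+ replicate 1 and 10 without DN replicate 1, where 5 inflammatory mediators were higher. Naip2 passed in only some settings, with adjusted p = 0.0875 by DESeq2, 0.139 without the dataset term, 0.0754 with the stricter hashtag quantile, and 0.0651 to 0.436 without any 1 pool other than DN replicate 1. Tlr2 and Il15 did not pass without either Ly6C+ pool or CD43+ replicate 1 (0.0602 to 0.36), and Ly96 did not pass without Ly6C+ replicate 2 or CD43+ replicate 2 (0.0796 and 0.0534).

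Among 35 transcription factors of the monocyte lineage, 7 were higher and 5 lower, where all genes gave 10.4% and 7.73%. Cebpd, a C/EBP factor of myeloid differentiation, had 129 and 181 CPM in Ly6C+ monocytes, 40.7 and 68.6 CPM in CD43+ monocytes and 71.4 and 79.5 CPM in DN blood cells (1.37 ± 0.13, adjusted p = 0.00013). Cebpa, its relative that drives myeloid fate, had 129 and 121 CPM in Ly6C+ monocytes, 41.1 and 21.2 CPM in CD43+ monocytes and 107 and 86.2 CPM in DN blood cells (1.31 ± 0.16, adjusted p = 0.00068). Cebpe, which serves granule formation, stood at 3.88 and 5.19 CPM in Ly6C+ monocytes, 1.66 and 0.385 CPM in CD43+ monocytes and 0.391 and 0.104 CPM in DN blood cells (3.50 ± 0.55, adjusted p = 0.002). Batf3, Irf5, Hif1a and Id1 were the others called higher. Bhlhe40, Runx2, Zbtb46, Klf4 and Rel were lower. Zbtb46, a factor of conventional dendritic cells, had 0.243 and 0.962 CPM in Ly6C+ monocytes, 4.15 and 1.54 CPM in CD43+ monocytes and 18.8 and 35.9 CPM in DN blood cells (-3.68 ± 0.74, adjusted p = 0.0139). Without Ly6C+ replicate 1, 2 of the factors were lower, without Ly6C+ replicate 2, 2 were higher and 3 lower, and without DN replicate 1, 13 were higher. Cebpe was among those lost without Ly6C+ replicate 2 (adjusted p = 0.105).

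Genes known from CD43+ monocytes were lower in 10 of 20 and higher in 0, where all genes gave 7.73% lower and 10.4% higher. Against CD43+ monocytes alone 19 of 20 were lower, with a median log2 change of -3.48, where 13.5% of all genes were lower. Nr4a1, the nuclear receptor that non-classical monocytes need, had 41.5 and 67.3 CPM in Ly6C+ monocytes, 264 and 221 CPM in CD43+ monocytes and 38.4 and 19.3 CPM in DN blood cells (against CD43+ monocytes -1.90, adjusted p = 0.039). Cx3cr1 was the gene of the list that did not pass there. Without CD43+ replicate 1 or replicate 2, 10 or 9 of the 20 were lower against CD43+ monocytes. Without DN replicate 2, 17 of the 20 were lower against both populations together. Genes of antigen presentation and of dendritic-type monocytes were mostly lower in Ly6C+ monocytes than in DN blood cells, and differed less from CD43+ monocytes. Of these 20 genes, 17 were lower and 0 higher against DN blood cells, with a median log2 change of -2.56, where all genes gave 7.37% and 7.39%. Against CD43+ monocytes 7 were higher, 2 lower and 11 not called, where all genes gave 14.5% higher and 13.5% lower. The 20 include class II genes. Cd209a (chr8:3743397-3748984, minus strand), a C-type lectin, had 39.1 and 36.9 CPM in Ly6C+ monocytes, 23.2 and 7.70 CPM in CD43+ monocytes and 489 and 747 CPM in DN blood cells. The class II invariant chain Cd74 had 4007 and 2958 CPM in Ly6C+ monocytes, 3260 and 1012 CPM in CD43+ monocytes and 27270 and 26580 CPM in DN blood cells, but MHC class II was among the proteins stained for the sort. Without Ly6C+ replicate 1 or replicate 2, 7 or 4 of the 20 were lower against DN blood cells. Against CD43+ monocytes, 4 were higher without either Ly6C+ pool and 11 without CD43+ replicate 1.

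Of 37 oxidative phosphorylation genes, 11 were higher and 0 lower against both populations together, with log2 changes between 0.43 and 0.71 among the 11. Against CD43+ monocytes 20 were higher and 0 lower, where all genes gave 14.5% and 13.5%. Of 21 genes of glycolysis and the pentose phosphate pathway, 7 were higher, among them Hk3, Pgd and Pkm, and the lactate exporter Slc16a3 was lower. Of 32 cell cycle genes, 7 were lower and 1 higher against both populations together. Against CD43+ monocytes alone 3 were lower and 3 higher, where all genes gave 13.5% and 14.5%. Against DN blood cells alone 8 were lower and 0 higher, where all genes gave 7.37% and 7.39%. Top2a, which untangles DNA in dividing cells, had 4.37 and 0.962 CPM in Ly6C+ monocytes, 16.2 and 7.70 CPM in CD43+ monocytes and 7.69 and 5.91 CPM in DN blood cells (against both together -1.76 ± 0.39, adjusted p = 0.016). Of 19 immediate early and stress genes 6 were higher and 2 lower, of 19 MHC class I genes 3 were higher and 1 lower, and of 20 growth factor receptors 2 were higher and 2 lower, where all genes gave 10.4% higher and 7.73% lower, so the counts of the last 2 lists lie near that background. Fos, an early response transcription factor, had 379 and 185 CPM in Ly6C+ monocytes, 85.5 and 33.5 CPM in CD43+ monocytes and 190 and 144 CPM in DN blood cells (1.55 ± 0.17, adjusted p = 0.000554). When Ly6C+ replicate 2 was left out, 0 genes of oxidative phosphorylation, glycolysis and MHC class I were higher, 0 cell cycle genes were lower, and 2 early and stress genes were higher. The oxidative phosphorylation count was 6 without Ly6C+ replicate 1, 6 without CD43+ replicate 1, 3 without CD43+ replicate 2, 7 without DN replicate 1 and 1 without the dataset term. Against CD43+ monocytes it was 6 without Ly6C+ replicate 2, 11 without CD43+ replicate 1, 4 without CD43+ replicate 2 and 10 without the dataset term. Pgd did not pass without either Ly6C+ pool (0.0585 and 0.251), nor Pkm without Ly6C+ replicate 2 or the dataset term (0.0698 and 0.0863). Glycolysis had 4 genes higher without Ly6C+ replicate 1 and 3 without either CD43+ pool or the dataset term, and 4 cell cycle genes were lower without CD43+ replicate 1 or the dataset term. The MHC class I and growth factor receptor lists had between 0 and 4 genes higher over all fits that left out 1 pool.

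**Figure D2:**
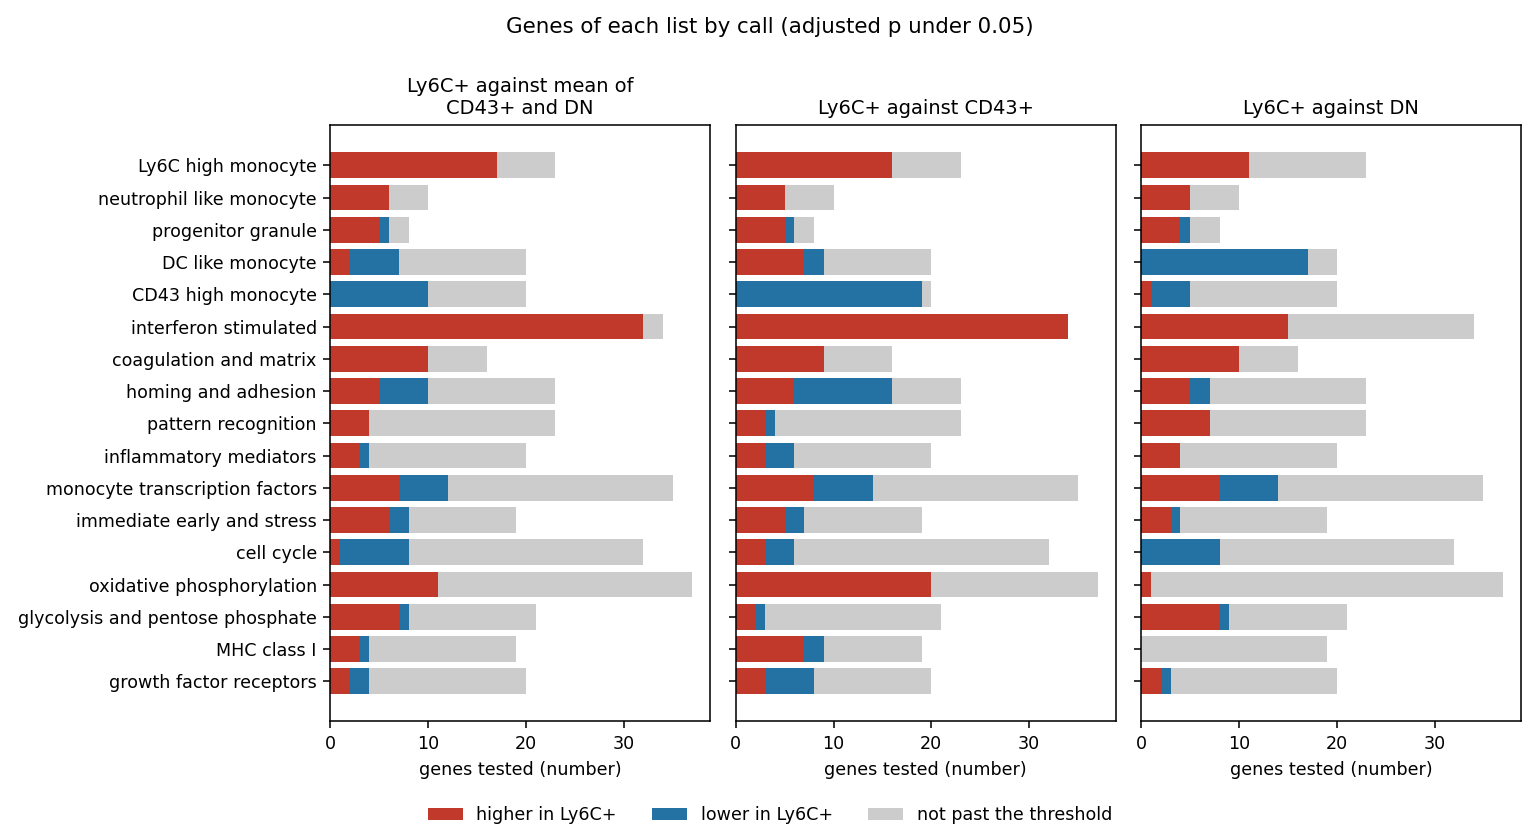
Number of tested genes per list that were higher in Ly6C+ monocytes, lower or not past the threshold, in the contrast against both other blood populations (left), CD43+ monocytes (middle) and DN blood cells (right). In the left panel 32 of 34 genes of the interferon list are higher and 10 of 20 genes of the CD43+ monocyte list are lower.

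The list with the largest share of calls was that of interferon-stimulated genes, which cells switch on through the receptor for type I interferon. Of its 34 tested genes 32 were higher and 0 lower, with a median log2 change of 1.96, where all genes gave 10.4% and 7.73%. Isg15 (chr4:156199424-156200818, minus strand), a ubiquitin-like protein, had 252 and 172 CPM in Ly6C+ monocytes, 14.9 and 8.86 CPM in CD43+ monocytes and 116 and 94.7 CPM in DN blood cells (2.66 ± 0.13, adjusted p = 5.63e-06). Ifit1 (chr19:34640871-34650009, plus strand), which binds foreign RNA, had 37.6 and 36.9 CPM in Ly6C+ monocytes, 2.49 and 1.54 CPM in CD43+ monocytes and 14.7 and 16.4 CPM in DN blood cells (2.83 ± 0.19, adjusted p = 1.66e-05). Ly6C+ monocytes were the highest and CD43+ monocytes the lowest for both genes in both datasets. Irf7, the regulator that amplifies the response, had 234 and 142 CPM in Ly6C+ monocytes, 63.1 and 27.0 CPM in CD43+ monocytes and 96.4 and 39.8 CPM in DN blood cells (1.92 ± 0.20, adjusted p = 0.000721). The receptor-proximal factors rose by less, with log2 changes of 0.98 ± 0.15 for Stat2 and 0.53 ± 0.11 for Irf9. Ifit3 and Ifit3b are near-identical copies, so the split of their reads is uncertain.

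Against CD43+ monocytes alone all 34 of the tested interferon genes were higher, with a median log2 change of 2.92, where 14.5% of all genes were higher. Against DN blood cells alone 15 were higher and 0 lower, with a median of 0.64, where all genes gave 7.39% and 7.37%. The count against DN blood cells fell to 6 without Ly6C+ replicate 1, to 6 without Ly6C+ replicate 2 and to 6 without the dataset term, and was 11 without DN replicate 2. Against both populations together it was 22 without Ly6C+ replicate 1 and 25 without Ly6C+ replicate 2.

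The promoters of 3 of these genes and of Cxcl10, an interferon-induced chemokine outside the list, are shown because they carry the motif through which interferon factors act. The sequences are from RefSeq (GRCm38.p6) and run from 250 bases before to 50 bases after the start of the gene, on the strand of the gene, and capitals mark matches to GAAANNGAAA on either strand. The motif was searched on both strands, and overlapping matches are drawn as 1 run.
Ifit1, chr19:34640639-34640938, plus strand: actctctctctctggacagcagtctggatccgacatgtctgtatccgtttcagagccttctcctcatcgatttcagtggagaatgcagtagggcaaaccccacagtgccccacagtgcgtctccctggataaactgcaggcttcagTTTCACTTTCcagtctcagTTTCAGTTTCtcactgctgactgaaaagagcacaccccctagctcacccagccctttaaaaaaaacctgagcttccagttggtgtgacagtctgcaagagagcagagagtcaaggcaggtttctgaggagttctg
Isg15, chr4:156200769-156201068, minus strand: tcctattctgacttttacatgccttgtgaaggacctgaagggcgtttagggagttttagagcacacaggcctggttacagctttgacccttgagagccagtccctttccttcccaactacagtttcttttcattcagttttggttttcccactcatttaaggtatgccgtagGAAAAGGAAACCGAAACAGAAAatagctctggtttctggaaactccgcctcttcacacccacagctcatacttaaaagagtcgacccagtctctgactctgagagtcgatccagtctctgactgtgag
Rsad2, chr12:26456403-26456702, minus strand: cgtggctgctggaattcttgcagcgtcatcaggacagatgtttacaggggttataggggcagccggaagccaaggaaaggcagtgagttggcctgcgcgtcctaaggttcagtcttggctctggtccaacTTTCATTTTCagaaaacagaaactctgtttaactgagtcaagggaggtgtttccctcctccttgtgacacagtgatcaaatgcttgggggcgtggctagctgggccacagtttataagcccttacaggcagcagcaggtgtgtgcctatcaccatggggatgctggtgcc
Cxcl10, chr5:92348840-92349139, minus strand: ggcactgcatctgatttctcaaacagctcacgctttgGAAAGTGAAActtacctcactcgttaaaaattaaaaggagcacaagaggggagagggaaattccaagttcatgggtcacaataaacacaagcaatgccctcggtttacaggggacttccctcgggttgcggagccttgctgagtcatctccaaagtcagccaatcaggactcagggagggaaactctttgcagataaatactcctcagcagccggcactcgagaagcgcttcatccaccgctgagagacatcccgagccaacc
The first base of the matches lay at -104 and -85 from the start site in Ifit1, at -78, -72 and -66 in Isg15, at -120 in Rsad2 and at -213 in Cxcl10. Of the 26 interferon-list genes with a promoter in the table, 14 (53.8%) held the motif, against 1079 of 27025 promoters of all genes (3.99%). In the classical monocyte list it was 1 of 18 (5.56%), and in the CD43+ monocyte list 1 of 17 (5.88%). A match describes these letters and is not evidence of binding.

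Interferon-stimulated transcripts were unevenly spread over the cells. In Ly6C+ monocytes thinned to 2000 UMIs, the list had a median of 8 UMIs per cell in dataset 1 and 6 in dataset 2, with a highest cell of 77 and 89. The 10% of cells with the most of these UMIs carried 35.1% and 35.7% of them, against 28.3% and 33.9% in CD43+ monocytes and 32.0% and 33.0% in DN blood cells. The variance to mean ratio of the list was 11.7 and 10.1 in Ly6C+ monocytes, 2.43 and 2.41 in CD43+ monocytes and 6.47 and 4.31 in DN blood cells. At an equal relative spread this ratio grows with the mean, so it does not compare unevenness alone. The means were 11.4 and 8.71 UMIs in Ly6C+ monocytes, 3.15 and 1.75 in CD43+ monocytes and 6.72 and 4.31 in DN blood cells. In CD43+ monocytes the median was 3 and 1 UMIs, and in DN blood cells it was 5 and 3. Isg15 was seen in 21.6% and 16.4% of thinned Ly6C+ monocytes, against 2.44% and 1.54% of CD43+ monocytes and 14.6% and 11.8% of DN blood cells, and in 31.9% and 27.7% of Ly6C+ monocytes unthinned.

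**Figure D3:**
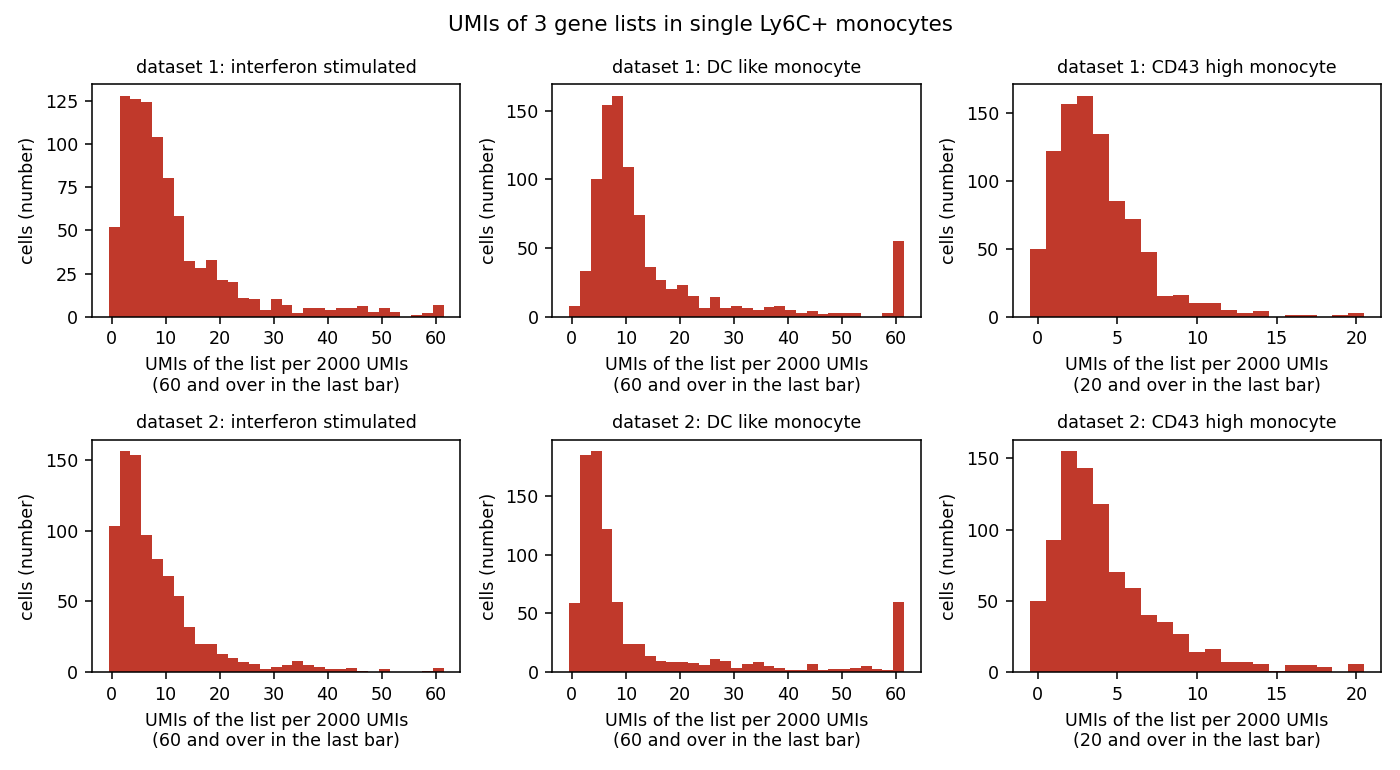
Number of Ly6C+ monocytes by their UMIs of the interferon list, the dendritic-type (DC like) list and the CD43+ monocyte list per 2000 UMIs, with dataset 1 above and dataset 2 below; the last bar holds all cells beyond the axis. Medians are 8 and 6 UMIs for the interferon list, 9 and 5 for the dendritic-type list and 3 and 3 for the CD43+ list.

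Within the population, variation from cell to cell was measured as the variance to mean ratio of thinned counts, which is close to 1 when cells differ by counting alone. Over 2434 genes with a mean of at least 0.1 UMI per thinned cell the median ratio was 1.03 in dataset 1 and 1.04 in dataset 2. Of the 50 genes with the highest ratio in each dataset, 36 were shared. Cd74 led with ratios of 20.2 and 19.5. The class II chains H2-Aa, H2-Ab1 and H2-Eb1 had 6.70 and 9.98, 6.03 and 10.3, and 4.45 and 7.08. Lysozyme Lyz2 had ratios of 6.36 and 7.05, Apoe, the lipid carrier apolipoprotein E, 5.95 and 8.29, Chil3 5.44 and 5.28, and Ly6c2 4.77 and 5.61. At an equal relative spread the ratio grows with the mean, so it does not rank genes of unlike level. Lyz2 had means of 86.6 and 76.2 UMIs per thinned cell and was seen in 100% of cells. Chil3 had means of 2.64 and 2.02 UMIs and was seen in 55.6% and 51.1%. Cxcl10 had a ratio of 4.93 in both datasets although it was seen in only 3.77% and 4.88% of thinned cells. Interferon-stimulated Ifi27l2a and Isg15 had ratios of 3.81 and 4.58, and of 3.44 and 3.28. The 50 also held Gm42418 (6.91 and 13.2, the second highest), the nuclear RNA Malat1, the cytoskeletal genes Actb, Vim and Tmsb4x, the ferritin genes Fth1 and Ftl1 and mitochondrial transcripts. Lyz1, with 2.49 and 5.44, is a LysoDC gene whose level in every blood population moved with the dataset.

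Clustering of the Ly6C+ monocytes of each dataset on their own gave 4 groups in each, which could be matched by their leading genes. The values below describe groups that were made from these same genes, so no test is attached to them. Median depth was close across the groups, between 4356 and 4477 UMIs in dataset 1 and between 5801 and 6169 in dataset 2. At a coarser or finer resolution the groups merged or split, and some of the names below were then given to no group.

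The first group was led by interferon-stimulated genes and held 185 of 931 cells in dataset 1 (19.9%, exact 95% interval 17.4% to 22.6%) and 165 of 866 in dataset 2 (19.1%, 16.5% to 21.8%). Among the 8 leading genes of each dataset, 6 were shared, namely Cxcl10, Ifit1, Ifit2, Ifit3, Isg15 and Rsad2. Isg15 stood at 962 and 654 CPM inside the group, against 73.2 and 55.9 CPM in the other Ly6C+ monocytes. Cxcl10 stood at 339 and 267 CPM inside, against 3.64 and 5.5 CPM outside. Ly6c2 was also high in this group, at 2538 and 2285 CPM inside against 974 and 762 CPM outside. Plac8 stood at 1974 and 5092 CPM inside, against 961 and 2622 CPM outside. The plasmacytoid dendritic cell markers summed to 796 and 563 CPM inside, of which Bst2 gave 780 and 552 CPM, against 265 and 202 CPM outside. Natural killer cell markers summed to 67.7 and 32.6 CPM inside, against 10.0 and 7.65 CPM outside, and their part in the group was not tested. At resolution 0.3 the interferon-led share of dataset 2 was 5.89%.

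The largest group was led by Chil3, Fn1, Mmp8 and Slpi. It held 432 cells (46.4%, 43.2% to 49.7%) in dataset 1 and 347 cells (40.1%, 36.8% to 43.4%) in dataset 2, where its share was 18.4% at resolution 1.0. With 3 markers of classical monocytes among its leading 10 genes, it took the name Ly6C-high monocyte-like by rule only. Ly6c2 itself was lower here, at 907 and 887 CPM inside against 1612 and 1169 CPM outside. Plac8 was lower too, at 809 and 1886 CPM inside against 1467 and 3882 CPM outside. Chil3 stood at 1744 and 1494 CPM inside, against 911 and 683 CPM in the other Ly6C+ monocytes. Fn1 stood at 1238 and 1338 CPM inside, against 653 and 617 CPM outside, and Mmp8 at 122 and 103 CPM inside, against 36.8 and 35.3 CPM outside. Its share of cells with a UMI of Fn1 was 93.8% and 97.7%. Isg15 and Cd74 were lowest here among the 4 groups, Isg15 at 43.3 and 25.7 CPM and Cd74 at 1611 and 480 CPM.

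Another group was led by genes of CD43+ monocytes, among them Itgal, the alpha chain of the integrin LFA-1, and Ear2, a ribonuclease, and was CD43-high monocyte-like by 3 and 5 markers. It held 172 cells (18.5%, 16.0% to 21.1%) and 260 cells (30.0%, 27.0% to 33.2%), an interval that covers counting error only, since the share of dataset 2 was 11.1% at resolution 1.0 and no group had this name at 0.3. Only Ear2, Fdps and Itgal were shared among its leading 8 genes, so the groups of the 2 datasets were less alike than the others. Itgal stood at 275 and 526 CPM inside, against 103 and 116 CPM outside, and against 857 and 1182 CPM in CD43+ monocytes themselves. Nr4a1 stood at 87.6 and 137 CPM inside, against 31.0 and 37.2 CPM outside. Treml4, a receptor of non-classical monocytes, stood at 66.7 and 169 CPM inside, against 11.9 and 14.1 CPM outside. Ccr2 was low here, at 838 and 782 CPM inside against 1452 and 1440 CPM outside. Cells of this group still held Ly6c2 but less than the others, at 984 and 518 CPM inside against 1357 and 1293 CPM outside. In dataset 2 this was the lowest Ly6c2 level of the 4 groups. The list of CD43+ monocyte genes summed to 2777 and 3401 CPM inside, against 1653 and 1605 CPM outside. In CD43+ monocytes themselves it summed to 9964 and 11570 CPM. Not all genes of CD43+ monocytes were raised in the group in both datasets. Cd300e had 0 and 1 UMIs inside. Fcgr4 was lower inside in dataset 1, at 14.4 against 18.2 CPM outside, and higher inside in dataset 2, at 30.6 against 19.6 CPM.

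The smallest group was led by Cd209a and class II genes, with 8 markers of dendritic-type monocytes (DC-like), and held 142 cells (15.3%, 13% to 17.7%) and 94 cells (10.9%, 8.86% to 13.1%), though at resolution 0.3 its share of dataset 2 was 41.6%. The shared leading genes were Cd209a, Cd74, Clec10a, H2-Aa, H2-Ab1 and H2-DMb1. Cd209a stood at 142 and 236 CPM inside, against 20.4 and 11.5 CPM in the other Ly6C+ monocytes, and H2-Aa at 3003 and 3671 CPM inside, against 508 and 502 CPM outside. DN blood cells had more of both, at 489 and 747 CPM for Cd209a and 6892 and 9983 CPM for H2-Aa. Klrd1 and Cd7, which the DN blood cells held at 102 and 344 CPM and at 74.3 and 55.1 CPM, stood at 6.29 and 1.69 CPM and at 11 and 11.9 CPM in this group. Ly6c2 stood at 1164 and 983 CPM inside, close to the level of all Ly6C+ monocytes, and Ccr2 was at 1579 and 1862 CPM, its highest among the 4 groups. Chil3 and Slpi were low, Chil3 at 385 and 288 CPM inside against 1459 and 1090 CPM outside and Slpi at 28.3 and 8.47 CPM inside against 188 and 179 CPM outside. Apoe stood at 6044 and 5445 CPM inside, against 4022 and 3423 CPM outside.

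**Figure D4:**
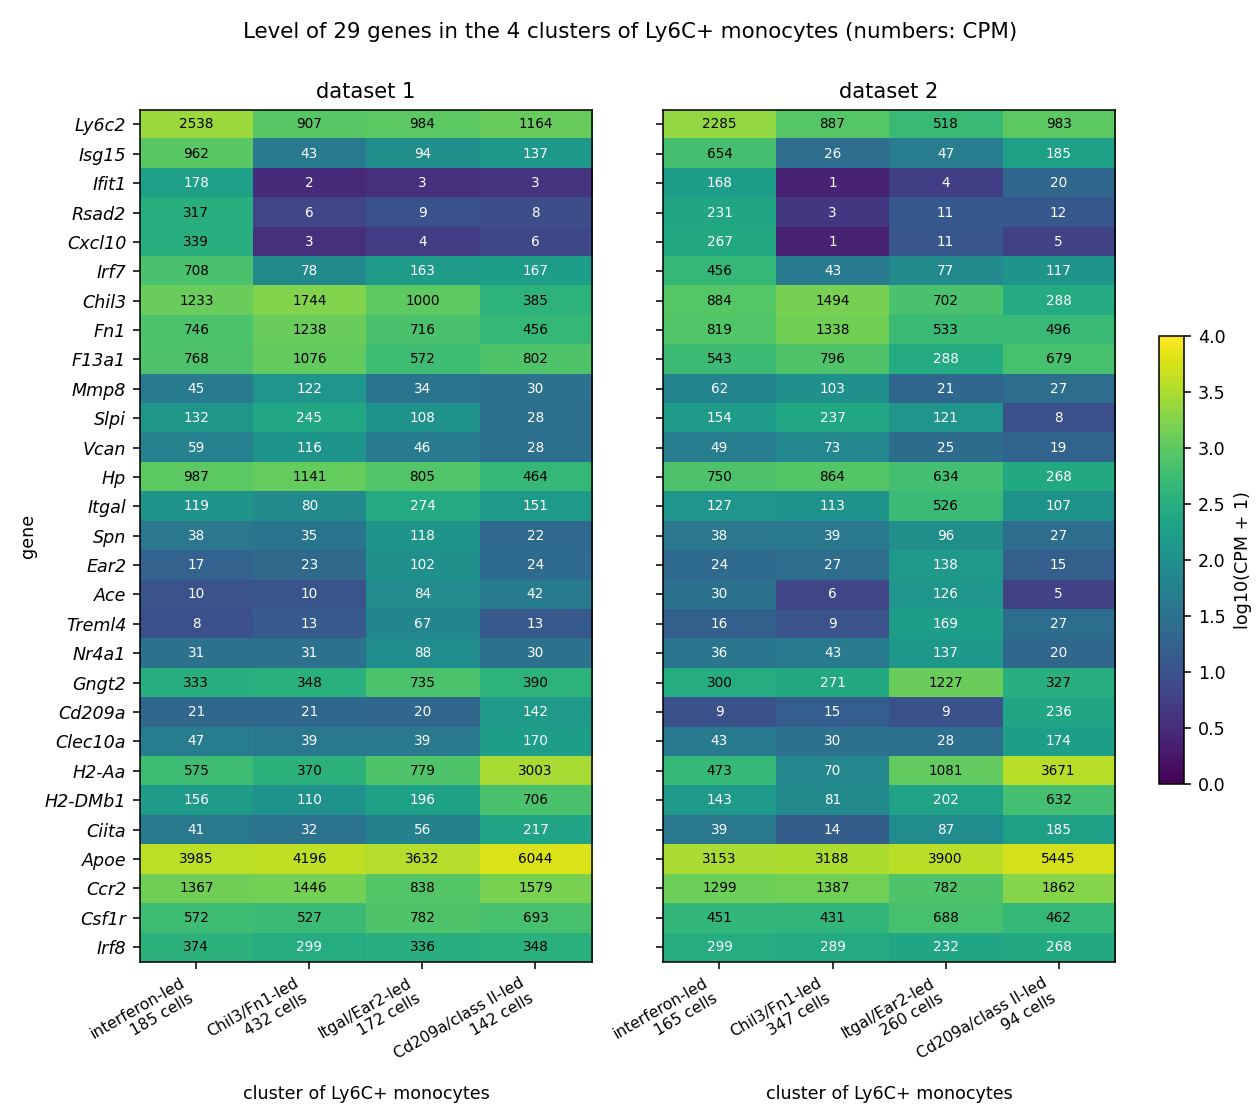
CPM of genes (rows) in the 4 groups of Ly6C+ monocytes (columns) of each dataset, printed in each cell and coloured as log10(CPM + 1). The interferon-led group holds 19.9% and 19.1% of cells, the Chil3 and Fn1-led group 46.4% and 40.1%, the Itgal and Ear2-led group 18.5% and 30.0%, and the Cd209a and class II-led group 15.3% and 10.9%.

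The promoters of H2-Aa and H2-Eb1, both among the most variable genes, are shown with the class II Y box in capitals (CTGATTGG, searched on both strands). They come from the same RefSeq table and window.
H2-Aa, chr17:34287774-34288073, minus strand: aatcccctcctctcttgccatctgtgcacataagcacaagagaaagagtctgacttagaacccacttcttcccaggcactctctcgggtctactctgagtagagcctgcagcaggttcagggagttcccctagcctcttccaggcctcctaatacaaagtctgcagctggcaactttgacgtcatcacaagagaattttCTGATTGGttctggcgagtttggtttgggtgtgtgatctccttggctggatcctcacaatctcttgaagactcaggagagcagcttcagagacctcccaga
H2-Eb1, chr17:34305617-34305916, plus strand: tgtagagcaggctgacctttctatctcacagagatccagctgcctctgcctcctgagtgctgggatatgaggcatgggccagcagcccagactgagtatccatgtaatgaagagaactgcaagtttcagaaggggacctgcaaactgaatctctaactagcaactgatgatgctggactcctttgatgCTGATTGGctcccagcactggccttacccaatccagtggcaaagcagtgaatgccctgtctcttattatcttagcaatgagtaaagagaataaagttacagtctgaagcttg
The match began at -51 in H2-Aa and at -62 in H2-Eb1. Of 13 genes of the dendritic-type list whose promoter was at hand, 2 held these letters (15.4%), against 1271 of 27025 promoters of all genes (4.70%). These are 2 genes, and the share over the list describes only them.

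In single cells the dendritic-type list was spread less evenly than the interferon list in both datasets. Its median was 9 and 5 UMIs per 2000 in Ly6C+ monocytes, with the highest cell at 159 and 139, and the 10% of cells with the most carried 43.8% and 51.0% of the UMIs. DN blood cells had a median of 111 and 129 UMIs of the same genes, and CD43+ monocytes of 9 and 2. The list of CD43+ monocyte genes was spread more evenly, with a median of 3 UMIs in Ly6C+ monocytes of both datasets and 26.7% and 29.5% of the UMIs in the 10% of cells with the most, against medians of 20 and 23 in CD43+ monocytes and 3 and 2 in DN blood cells.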

How the data were processed

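The deposited values are unnormalized UMI counts of 32285 genes and of the hashtags in every barcode. Cell Ranger 6.0.1 made them per the file headers, while the submitters' processing notes name version 2.0.0 and mm10. Dataset 1 had 9 hashtags and dataset 2 had 7. Hashtags were called per matrix with HTODemux of Seurat 5.3.0 (CLR, positive quantile 0.99). A single tag was called in 8343 of 11878 barcodes of dataset 1 and in 8516 of 13111 of dataset 2, and several tags in 2422 and 4572. Barcodes with several were removed as doublets, and 558 and 1550 of these had the Ly6C+ tag among the leading 2. Of 965 and 1119 barcodes with the Ly6C+ tag alone, 29 and 245 failed the UMI or gene minimum and 5 and 8 the mitochondrial limit. Members' UMIs ran from 1028 to 10930 and from 1433 to 12795, and 5 and 0 members had 1000 to 1100.

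Raw counts were summed per population and dataset. The 8 sums (3 blood populations and all LysoDCs, from both datasets) were fitted together in edgeR 4.0.16 (R 4.3.3) with TMM, filterByExpr, robust quasi-likelihood and dataset as a block, since populations with the same number share a dataset by the labels. P-values are two-sided, Benjamini-Hochberg adjusted over 11458 genes, and rest on 2 pools per population (3 residual degrees of freedom, biological coefficient of variation 0.141). CPM values are scaled to the total of a sum, not to gene length.

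Genes were named by rule, as the 12 largest log2 changes each way among called genes that moved 1 way against either population in either dataset and reached 50 CPM (in Ly6C+ monocytes for a rise, in CD43+ monocytes or DN blood cells for a fall), plus up to 4 members per list by adjusted p and the 3 markers; other list members named in the text were chosen after their values were seen. The members of the population and the 27 gene lists were chosen with earlier results of these data known, so no list serves as independent evidence. Cells were thinned to 2000 UMIs for shares and variation. Clusters came from Leiden clustering in scanpy 1.11.5 (resolution 0.5, Python 3.11.15). A cluster took a name with at least 3 markers of a list among its leading 10 genes. Intervals are exact Clopper-Pearson at 95% (scipy 1.17.1) and cover counting error only, and clusters and shares were not tested because cells are not replicates. Gene positions are from GENCODE (GRCm38). Some results on single genes are not reported here.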

Additional observations from a re-analysis of the deposited data

How the results depend on the processing

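Without the dataset term (the replicate block), 1147 genes in place of 2077 differed from both other blood populations and 963 in place of 1692 from DN blood cells. Against CD43+ monocytes 2251 differed without the block, in place of 3202. Leaving out 1 pool at a time gave 535 to 2396 genes against both populations, 1322 to 3597 against CD43+ monocytes and 310 to 2253 against DN blood cells, the fewest in the first and the last without Ly6C+ replicate 2. Such fits leave 1 population with a lone pool, which is assumed to vary like the others. DESeq2 1.42.0, RLE size factors, no filter on low counts, blood populations alone, and stricter cell or hashtag filters kept all 3 counts within 1.5 times. HTODemux with k-means, chosen after seeing the data, gave 2147, 3311 and 1770 genes and 924 and 875 Ly6C+ cells. Of 94 named genes, 80 kept their call without the block and 14 lost it, and without Ly6C+ replicate 2 it was 45 of 92, with 47 lost; no named gene changed direction under any alternative. Cluster shares moved with the resolution. At 0.3 the interferon-led share was 16.1% and 5.89%, the DC-like share of dataset 2 was 41.6% and its Ly6C-high share 52.5%. At 1.0 the DC-like share of dataset 1 was 12.4%, the CD43-high shares were 14.1% and 11.1%, and the Ly6C-high share of dataset 2 was 18.4%. At 0.3 dataset 1 had no named cluster besides the interferon-led one and dataset 2 no CD43-high one, and at 1.0 dataset 1 had no Ly6C-high one. The cause of these moves was not tested.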

Other observations

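The Ly6C+ monocytes of the datasets were alike for most genes. Of 2957 genes at 50 CPM or more in either dataset, 21 were over 2-fold higher in dataset 1 and 20 in dataset 2. With 1 pool per dataset these differences have no replicate. Of the 21, 12 were also over 2-fold higher in dataset 1 in both CD43+ monocytes and DN blood cells, and LysoDCs of the same datasets held more of the leading 3, C1qa, Cd63 and C1qc. C1qa, a complement component, had 454 CPM in Ly6C+ monocytes of dataset 1 and 31.6 CPM in those of dataset 2, with 8726 and 7806 CPM in LysoDCs. Lyz1 had 791 and 129 CPM in Ly6C+ monocytes and 12670 and 12060 CPM in LysoDCs. Interferon genes Ifit2, Ifit3 and Ifi213 were also higher in dataset 1, with Ifit3 at 131 and 53.5 CPM in Ly6C+ monocytes and at 6.53 and 6.01 CPM in LysoDCs. Jun, an immediate early gene, had 246 CPM in Ly6C+ monocytes of dataset 1 and 37.5 CPM in those of dataset 2.

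Of the 20 genes higher in dataset 2, 2 were also over 2-fold higher there in both other blood populations. Cebpb, a transcription factor of the C/EBP family, had 255 CPM in Ly6C+ monocytes of dataset 1 and 969 CPM in those of dataset 2, while DN blood cells had 112 and 49.9 CPM. Hopx, a homeodomain-only protein, had 60.9 and 191 CPM in Ly6C+ monocytes, 14.1 and 20.0 CPM in CD43+ monocytes and 14.6 and 19.2 CPM in DN blood cells. Id3, an inhibitor of helix-loop-helix factors, had 11.7 and 84.8 CPM in Ly6C+ monocytes and 34.5 and 243 CPM in DN blood cells. Treml4 and Tppp3, both high in CD43+ monocytes, had 22.1 and 60.8 CPM and 81.6 and 201 CPM in Ly6C+ monocytes. The cause of these differences was not tested.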
